A study of Rattus norvegicus with 24 samples.

Results

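The genes described here encode the constitutive proteasome, the protease that every cell carries to degrade proteins tagged with ubiquitin, in the CA1 field of the rat hippocampus. They were taken by name: a probe set belonged if its only gene symbol in the array's annotation began with Psma, Psmb, Psmc or Psmd followed by a digit, and the interferon-induced subunits Psmb8, Psmb9 and Psmb10 were left out. This gave 34 genes with 45 probe sets, each gene represented by its brightest probe set. A gene was tested if its log2 signal, the array's brightness on a scale where 1 unit is a doubling, was over 4 in at least 6 arrays, and 33 of these genes passed among 9076 tested in all. The gene left out, Psmc3ip, is a meiotic recombination factor and no proteasome subunit, and its mean was 3.16 with 0 arrays over the limit. The dimmest gene inside was Psmd9 at 6.78, and each of the 33 genes was over the limit in all 23 arrays. The rule therefore let no gene in through a single group.

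The tissue was CA1 microdissected from male Long-Evans rats, an outbred strain, housed singly and given no treatment, and each array held total RNA of 1 biological replicate. Young rats of 6 months gave 9 arrays. Aged rats of 24 to 26 months were divided by a learning index from a Morris water maze (a test of memory for where an escape platform lies under the water) into aged unimpaired (6 arrays, index within the young range) and aged impaired (8 arrays, index worse than young). A further aged unimpaired column was blank after the submitters' quality control, and young replicate 9, kept as labelled, lies among the aged unimpaired columns.

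The proteasome is a barrel with caps. The core particle stacks rings of alpha subunits (Psma genes), which gate the entrance, on rings of beta subunits (Psmb genes), which hold the cutting sites. The regulatory particle has a base of ATPases (Psmc genes) that unfold the substrate and a lid (most Psmd genes) that removes its ubiquitin chain. In neurons the complex clears damaged proteins and takes part in remodelling synapses, and its subunit genes are known to be raised together by the transcription factors Nfe2l1 and Nfe2l2 through antioxidant response elements.

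The promoters were searched for that element, since the levels of both factors are compared between groups further on. RefSeq windows for build GRCr8, taken in the direction of the gene, were given for 29 of the 33 genes (Psma7, Psmd12, Psmd14 and Psmd6 were not among them), and the 250 bases before the start were searched on both strands. The element's core, TGACNNNGC, was found in 5 of the 29 promoters (17.2%), against 10.1% of 33469 RefSeq promoters of the same length. These windows show it in capitals with up to 16 bases on each side, and the order is Psma3 on chr6:95219721-95219748 (plus strand), Psmb2 on chr5:144254974-144255014 (plus), Psmb5 on chr15:32047415-32047455 (minus), Psmd1 on chr9:94157790-94157830 (plus) and Psmd9 on chr12:39018317-39018357 and chr12:39018364-39018404 (minus). In Psma3 and in the second Psmd9 window the core reads on the opposite strand.
Psma3: aagcgttctgtggcctGCCGGGTCAgca
Psmb2: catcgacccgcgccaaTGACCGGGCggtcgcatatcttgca
Psmb5: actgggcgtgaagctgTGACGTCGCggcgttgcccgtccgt
Psmd1: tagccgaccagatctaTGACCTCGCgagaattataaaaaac
Psmd9: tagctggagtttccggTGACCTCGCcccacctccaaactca
Psmd9: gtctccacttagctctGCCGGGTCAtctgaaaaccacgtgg

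A CCAAT box, searched as CCAAT on both strands, was present in 16 of the 29 promoters (55.2%, against 34.0% of all), and a GC box, searched as GGGCGG, in 20 of 29 (69.0%, against 30.5%). In Psmb2 the antioxidant element overlaps both a CCAAT box and a GC box. The CCAAT boxes of Psma2 on chr17:55260498-55260534 (minus strand) and of Psma5 on chr2:198584419-198584455 and chr2:198584448-198584484 (plus strand) are shown in capitals as examples from 2 of those 16 genes. Psma6, Psmb4 and Psmb5 held no CCAAT box in this window, and Psmb1 and Psmb7 did.
Psma2: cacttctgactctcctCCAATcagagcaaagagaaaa
Psma5: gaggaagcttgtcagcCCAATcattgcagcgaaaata
Psma5: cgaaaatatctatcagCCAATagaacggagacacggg
A match is a run of letters and says nothing of binding. The RefSeq promoters set beside these genes were not matched for base composition or breadth of expression. The shares are therefore not read as particular to proteasome genes.

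Medians over all probe sets lay between 4.2 and 4.28, and each array's median correlation with the others lay between 0.9895 and 0.9936, lowest in aged impaired replicates 7 and 8 and young replicate 5. Over 12 exact permutation tests of signal, correlation and the control probe sets' 3′ minus 5′ difference between groups, none passed adjustment (smallest two-sided p 0.0248, adjusted 0.26). The CA1 marker Wfs1 read 11.2 in young, 11.5 in aged unimpaired and 11.1 in aged impaired rats, and 6 of 8 CA1 markers passed the filter, whereas 5 of 8 markers of the neighbouring dentate gyrus did not pass the filter. Between the aged groups, Wfs1 was 0.36 ± 0.13 and Pou3f1 0.28 ± 0.09 lower in impaired rats, Fibcd1 0.2 ± 0.1 lower, and the dentate marker Prox1 0.67 ± 0.25 higher, with 5 of 8 impaired arrays above every unimpaired one (limma adjusted p = 0.629, 0.562, 0.712 and 0.632). Over the 6 CA1 markers the median difference was −0.17 (range −0.36 to 0.08, all genes −0.005). Over the 3 measured dentate markers it was 0.07 (0.04 to 0.67), and over 6 markers of the CA3 field 0.13 (−0.14 to 1.23). The log2 of the CA1 markers' summed level ran from 13.9 to 14.1 in unimpaired and 13.7 to 14 in impaired rats. That of the dentate markers ran from 9.0 to 9.43 and from 9.13 to 9.64. The part of tissue composition in the differences between the aged groups was not tested. In such bulk tissue, fewer cells of a type and less RNA per cell cannot be told apart.

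No constitutive proteasome gene passed the test for a change with age or with learning ability. Each gene was compared with limma's moderated test, with Benjamini-Hochberg adjustment over all 9076 genes, and called at an adjusted p under 0.05. In aged against young rats 0 of 33 proteasome genes were called, beside 3.71% of all genes (337). In impaired against young rats 0 of 33 were called, beside 3.8% (345), and in unimpaired against young 0 of 33, beside 0.76% (69). Between impaired and unimpaired rats neither a proteasome gene nor any other was called (0%). These comparisons are not independent, since those with young rats share the 9 young arrays. At an unadjusted p under 0.05, 1 of 33 proteasome genes passed in each comparison (3.03%), beside 15.3%, 16.5%, 9.84% and 6.93% of all genes in the same order. The genes were Psmd3 in the aged and in the impaired rats, Psmd8 in the unimpaired rats, and Psmb3 between the aged groups. No proteasome gene had groups whose arrays did not overlap (0 of 33), beside 0.176%, 0.496%, 0.771% and 0.165% of all genes. These shares, and those of all genes called, are so small that a list of 33 can hold none. The lack of calls and of separated groups is therefore not read as a result about the proteasome genes.

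The confidence intervals show, for each gene taken singly, how large an unseen difference could be. For every one of the 33 genes and in all 4 comparisons the 95% confidence interval of the difference lay within 1.25-fold either way, which was so for 84.5% of all genes in aged against young, 78.1% in impaired against young, 78.7% in unimpaired against young and 78.1% between the aged groups. Within the narrower limit of 1.15-fold lay 30, 29, 30 and 28 of the 33 genes, beside 58.4%, 47.6%, 46% and 44.6% of all genes. The genes with a wider interval somewhere were Psma3, Psmb3, Psmd3, Psmd5, Psmd8 and Psmd9. The widest was that of Psmd5 between impaired and unimpaired rats, at 0.915-fold with an interval from 0.8 to 1.05. Its lower end lay just inside the 1.25-fold limit, and neither limit was part of the planned tests. The proteasome genes are bright, and 29 of the 33 had a mean over 9. Among the 3537 genes that bright, 65.8% had an interval within 1.15-fold and 89.5% within 1.25-fold in impaired against young rats. These are intervals for single genes on the scale of array signal. They were not widened for the number of genes and comparisons, so some can miss the true difference. They do not bound protein level or protease activity.

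**Figure D1:**
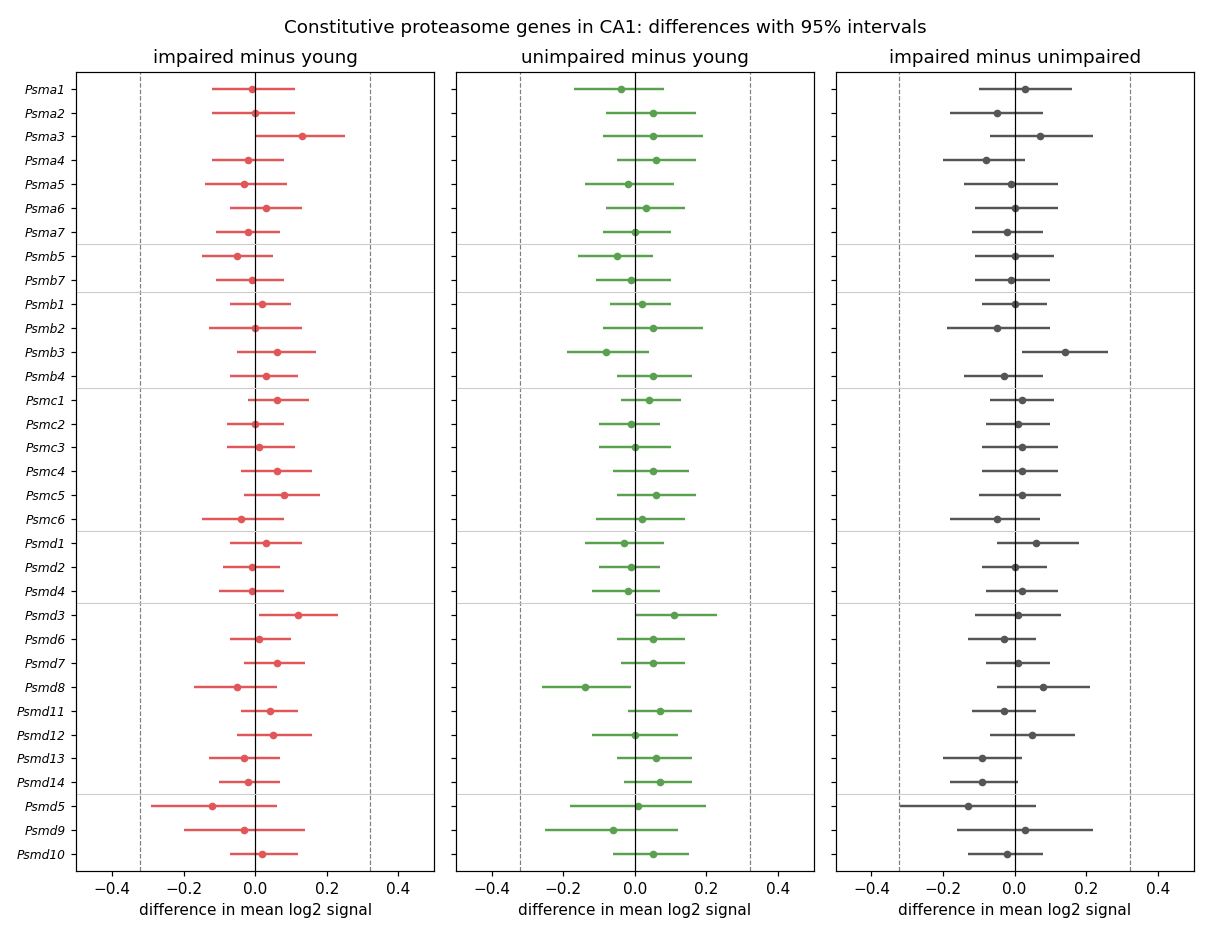
Difference in mean log2 signal for the 33 proteasome genes (points) with 95% confidence intervals (lines), for impaired minus young, unimpaired minus young and impaired minus unimpaired rats, with genes ordered by their place in the complex. The dashed lines mark 1.25-fold in either direction, and every interval lies between them.

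The centre of the list lay close to that of all genes. The median difference over the 33 genes was 0.013 log2 units in aged against young rats (all genes 0.011), 0.004 in impaired against young (0.008), 0.018 in unimpaired against young (0.015) and 0.004 between the aged groups (−0.005). Higher means were found for 21, 18, 21 and 18 of the 33 genes, beside 56.1%, 53.6%, 58.3% and 47.4% of all genes. The first 3 medians are so close to 0 that centring each array on its own median turned them to −0.01, −0.013 and −0.014, and quantile normalization turned them too, so no direction is read from them.

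The alpha ring, which forms the gate of the core particle, had all 7 of its genes measured, and their differences from young rats spanned −0.03 to 0.13 for the impaired group and −0.04 to 0.06 for the unimpaired group. The gene farthest from 0 was Psma3. Its log2 signal had a lowest, median and highest value of 8.772, 8.929 and 9.152 in young rats, 8.888, 8.948 and 9.169 in aged unimpaired rats and 8.873, 9.064 and 9.244 in aged impaired rats. Its highest array was an impaired one and its 4 lowest were young, but the groups overlapped over most of their range. The means were 8.928 ± 0.139 (SD, n = 9), 8.98 ± 0.108 (n = 6) and 9.054 ± 0.128 (n = 8), a difference of 0.13 ± 0.06 (SE) for impaired against young (1.09-fold, limma adjusted p = 0.309). In aged against young rats it was 0.09 ± 0.05 (adjusted p = 0.435), and between the aged groups 0.07 ± 0.07 (adjusted p = 0.866). The other alpha genes, Psma1, Psma2 and Psma4 to Psma7, differed from young rats by 0.06 or less in either aged group, and Psma4 was 0.08 lower in impaired than in unimpaired rats (adjusted p = 0.803).

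Of the catalytic beta subunits, Psmb5, which carries the chymotrypsin-like site, ran from 11.49 through a median of 11.59 to 11.78 in young rats, from 11.49 through 11.57 to 11.61 in unimpaired rats and from 11.34 through 11.59 to 11.69 in impaired rats. Its lowest arrays were impaired replicates 3 and 7 and its highest young replicates 7 and 4, with the bulk of all groups intermingled. The means were 11.61 ± 0.094, 11.56 ± 0.0534 and 11.56 ± 0.116 in that order. The difference was −0.05 ± 0.04 in aged against young rats (0.965-fold, limma adjusted p = 0.639) and −0.05 ± 0.05 for each aged group against young (adjusted p = 0.67 in impaired and 0.834 in unimpaired rats). Psmb7, which carries the trypsin-like site, ran from 10.96 through 11.08 to 11.17 in young, 10.99 through 11.06 to 11.12 in unimpaired and 10.89 through 11.09 to 11.21 in impaired rats. Its means, 11.07 ± 0.0751, 11.06 ± 0.0537 and 11.06 ± 0.118 in that order, differed by 0.01 at most. The caspase-like subunit Psmb6 shares its probe set with a second gene symbol and so lay outside the rule. That probe set read 9.452 ± 0.108 in young, 9.491 ± 0.1 in unimpaired and 9.521 ± 0.151 in impaired rats, differences no larger than its spread.

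The structural beta subunits Psmb1, Psmb2 and Psmb4, which build the ring without a cutting site in the constitutive complex, differed by 0.05 or less in every comparison. Psmb3, of the same ring, was the only gene past an unadjusted p of 0.05 between the aged groups. It ran from 9.002 through 9.167 to 9.256 in young, from 8.916 through 9.08 to 9.163 in unimpaired and from 9.024 through 9.236 to 9.345 in impaired rats. Of the 8 impaired arrays 5 stood above every unimpaired array, while the other 3 lay among them. The means were 9.068 ± 0.084 and 9.203 ± 0.118, a difference of 0.14 ± 0.06 (1.1-fold, limma adjusted p = 0.668). Unimpaired rats were 0.08 ± 0.06 below young rats (adjusted p = 0.743), and impaired rats 0.06 ± 0.05 above them (adjusted p = 0.616).

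**Figure D2:**
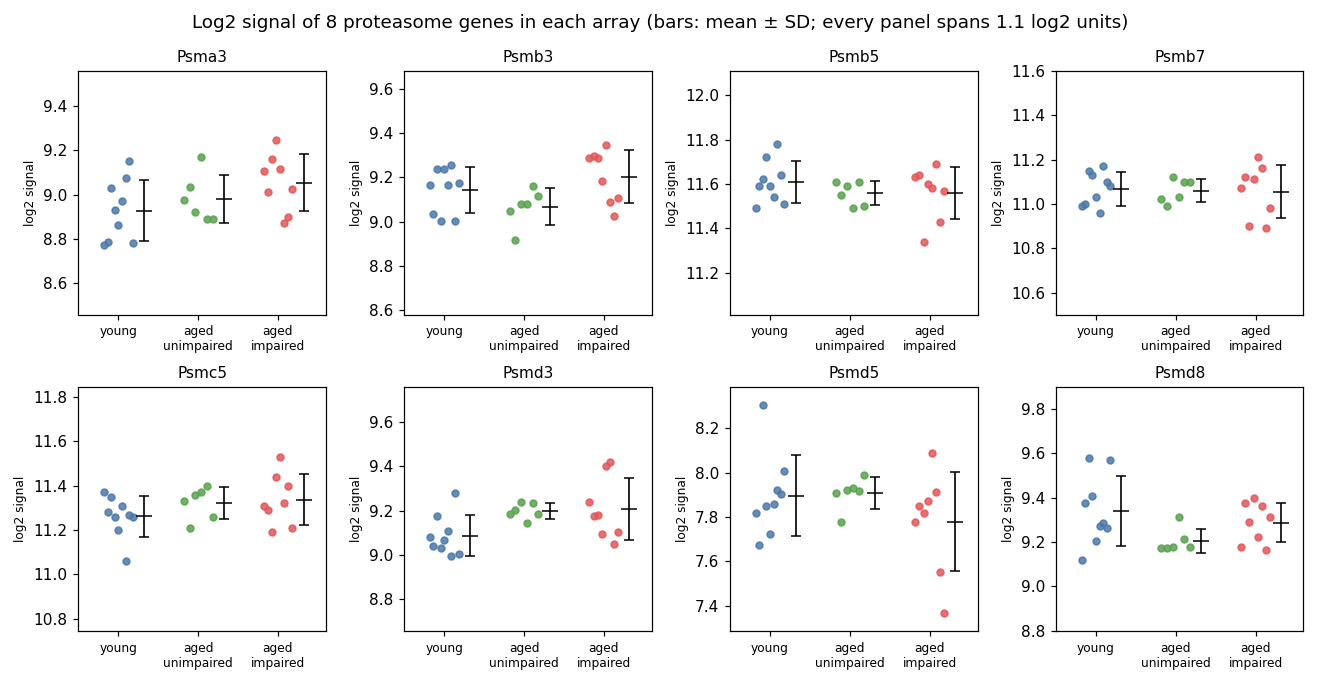
Log2 signal of 8 proteasome genes in each array (points: 9 young, 6 aged unimpaired, 8 aged impaired) with the mean and SD of each group as bars, every panel spanning 1.1 log2 units. In each panel the groups overlap, also for Psmd3, Psmb3 and Psmd8, which had the smallest p-values.

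The 6 base ATPases, the ring of motors that unfolds substrates, were measured in full, and their differences from young rats lay between −0.04 and 0.08 in impaired and between −0.01 and 0.06 in unimpaired rats. Psmc5 was the highest of them. It ran from 11.06 through 11.27 to 11.37 in young, from 11.21 through 11.35 to 11.4 in unimpaired and from 11.19 through 11.31 to 11.53 in impaired rats, with young replicate 7 the lowest array and impaired replicate 5 the highest. The means were 11.26 ± 0.0924, 11.32 ± 0.0718 and 11.34 ± 0.117 in that order. The difference was 0.07 ± 0.04 in aged (limma adjusted p = 0.493) and 0.08 ± 0.05 in impaired rats against young (adjusted p = 0.481). Psmc1 and Psmc4 were each 0.06 higher in aged than in young rats (adjusted p = 0.484 and 0.605). Psmc2 and Psmc3 differed by 0.01 or less from young rats in either aged group. Psmc6 was 0.04 lower in impaired and 0.02 higher in unimpaired rats than in young. The non-ATPase base subunits Psmd1 and Psmd2, which scaffold the base, and Psmd4, which binds ubiquitin chains, differed from young rats by between −0.03 and 0.03.

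In the lid, Psmd3 had the smallest p of any proteasome gene in aged against young rats. Its log2 signal ran from 8.994 through 9.068 to 9.282 in young, from 9.144 through 9.195 to 9.238 in unimpaired and from 9.049 through 9.178 to 9.421 in impaired rats. All 6 unimpaired arrays stood above 7 of the 9 young ones, and impaired replicates 5 and 6 stood above every other array. The means were 9.088 ± 0.0913, 9.199 ± 0.0357 and 9.208 ± 0.139 in that order. The difference from young was 0.12 ± 0.04 in all aged rats (1.08-fold, limma adjusted p = 0.187), 0.12 ± 0.05 in impaired rats (adjusted p = 0.229) and 0.11 ± 0.06 in unimpaired rats (adjusted p = 0.531). Over 23 fits that each left out 1 array, the difference in aged rats ran from 0.1 (without impaired replicate 6) to 0.141 (without young replicate 8, the highest young array). The limma adjusted p ran from 0.0806 to 0.292, so Psmd3 was called in none of them.

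Psmd8, another lid subunit, had lower means in both aged groups. It ran from 9.117 through 9.285 to 9.581 in young, from 9.175 through 9.178 to 9.313 in unimpaired and from 9.165 through 9.301 to 9.398 in impaired rats. Young replicates 3 and 9 were its highest arrays, and young replicate 1 its lowest. The means were 9.341 ± 0.157, 9.206 ± 0.0549 and 9.288 ± 0.09 in that order. The difference was −0.14 ± 0.06 in unimpaired against young (0.91-fold, limma adjusted p = 0.457), −0.05 ± 0.06 in impaired against young (adjusted p = 0.714) and −0.09 ± 0.05 in all aged rats (adjusted p = 0.426). Between the aged groups it was 0.08 ± 0.06 (adjusted p = 0.839).

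Psmd14, the lid enzyme that cuts the ubiquitin chain from the substrate, ran from 10.42 through 10.54 to 10.68 in young, from 10.57 through 10.57 to 10.7 in unimpaired and from 10.36 through 10.52 to 10.59 in impaired rats. It was 0.07 ± 0.05 higher in unimpaired rats (limma adjusted p = 0.694) and 0.02 ± 0.04 lower in impaired rats (adjusted p = 0.896) than in young, and 0.09 ± 0.05 lower in impaired than in unimpaired rats (adjusted p = 0.757). Every unimpaired array stood above the young median, and all 3 groups overlapped. Psmd13, a structural lid subunit, showed a difference of −0.09 ± 0.05 between the aged groups (9.324 ± 0.12 in impaired, 9.412 ± 0.0478 in unimpaired rats, adjusted p = 0.767). Psmd11, the subunit that clamps lid to core, was 0.07 ± 0.04 higher in unimpaired than in young rats (10.06 ± 0.0851 against 9.988 ± 0.0664, adjusted p = 0.628). The remaining lid genes Psmd6, Psmd7 and Psmd12 differed by 0.06 or less in every comparison.

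The assembly chaperones of the base, which carry Psmd names but leave the finished complex, were Psmd5, Psmd9 and Psmd10. Psmd5 was the most variable of them in the impaired rats, running from 7.368 through 7.834 to 8.089 there, from 7.672 through 7.859 to 8.304 in young and from 7.777 through 7.92 to 7.989 in unimpaired rats. Impaired replicates 8 and 7 were its lowest arrays, below every young one. Its means were 7.896 ± 0.184 in young, 7.908 ± 0.0702 in unimpaired and 7.78 ± 0.223 in impaired rats. The differences were −0.06 ± 0.07 in aged against young (adjusted p = 0.776), −0.12 ± 0.08 in impaired against young (limma adjusted p = 0.532) and −0.13 ± 0.09 between the aged groups (adjusted p = 0.828). Psmd9 was −0.06 ± 0.09 from young in unimpaired rats (6.743 ± 0.131 against 6.804 ± 0.201, adjusted p = 0.908), and Psmd10 differed by 0.05 or less.

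Variation between animals was small. The median SD within groups was 0.0947 log2 units over the 33 genes, beside 0.138 over all genes and 0.11 over the 3537 bright ones. The mean over the 33 genes was 10.11 ± 0.0503 in young, 10.13 ± 0.0352 in unimpaired and 10.12 ± 0.0757 in impaired rats. Its lowest and highest arrays, aged impaired replicate 7 at 9.998 and aged impaired replicate 5 at 10.24, came from the same group. Replicate 5 was the highest of all 23 arrays for 10 of the 33 genes, and replicate 7 the lowest for 9. Replicate 5 also had the highest upper quartile over all probe sets (8.22), and replicate 7 the lowest correlation with the other arrays. The range over all arrays, 0.237 as deposited, was 0.171 when arrays were centred on their medians and 0.143 after quantile normalization. Impaired replicate 7 was the lowest array under both, at 10.03, but replicate 5 was no longer the highest. That place went to impaired replicate 8 in centred and young replicate 7 in quantile normalized arrays. What part of the spread is scaling and what part the animal was not tested.

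**Figure D3:**
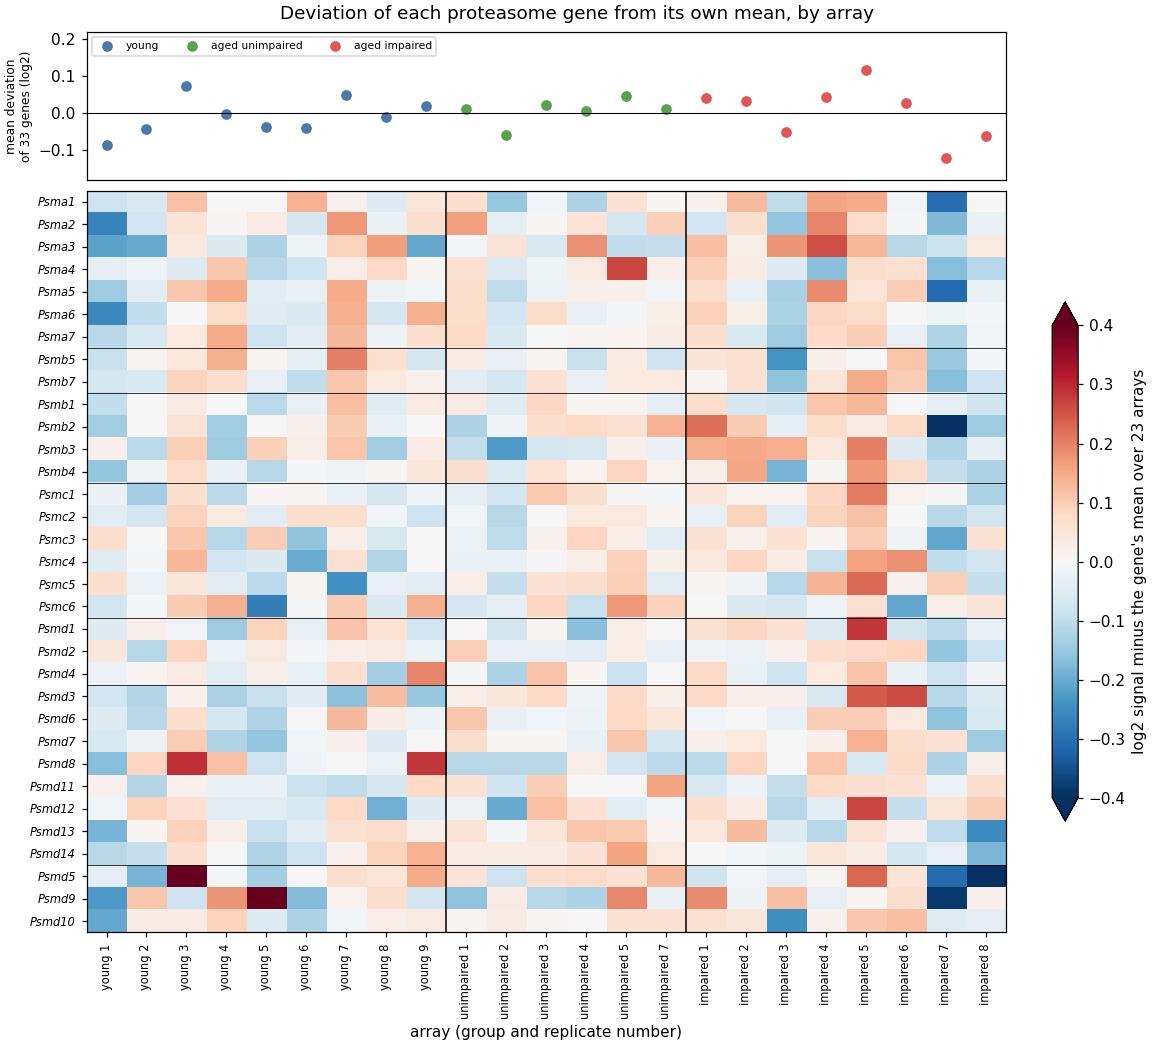
Log2 signal of each proteasome gene (rows, in the order alpha ring, catalytic beta, structural beta, base ATPases, other base subunits, lid, assembly chaperones) minus its mean over 23 arrays (columns by group and replicate); values beyond 0.4 take the end colour. The points above give the mean deviation of the 33 genes, lowest in aged impaired replicate 7 and highest in aged impaired replicate 5, and the points of the 3 groups overlap.

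From array to array the subunits tended to move together. With group means removed, the median Pearson correlation over the 528 pairs of the 33 genes was 0.338 across 23 arrays, and 91.5% of the pairs were above 0. Over all pairs of genes tested the median was 0.0945. Correlations above 0.5 made up 23.1% of proteasome pairs and 5.94% of all pairs. The points share their arrays, and with them each array's scaling and RNA, so these are descriptions without a test. After centring the arrays the medians were 0.28 and 0.0105, and after quantile normalization 0.203 and −0.0015. Within the core particle the median was 0.504 over 78 pairs, beside 0.295 over the 136 pairs of the regulatory particle and 0.328 over the 221 pairs across both. After centring these 3 medians were 0.44, 0.211 and 0.275, and after quantile normalization 0.377, 0.111 and 0.194. As deposited, the highest correlations were those of the alpha subunits Psma6 and Psma7 (0.841), Psma5 and Psma7 (0.823), and of Psma7 with Psmb1 (0.789). Next came the core subunit Psmb4 with the lid subunit Psmd13 (0.78) and with Psmb7 (0.779). Psma2 with Psma6 and the regulatory subunits Psmd2 with Psmd6 each reached 0.767, and Psma5 with Psmb7 0.763. As deposited, Psmd9 had the lowest median correlation with the rest (0.107), Psmc5 the next lowest (0.119) and Psma3 one of 0.165. This order depended on scaling. Psmc5 was lowest after centring (−0.0182) and after quantile normalization (−0.0441), where Psmd9 had 0.258 and 0.141.

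**Figure D4:**
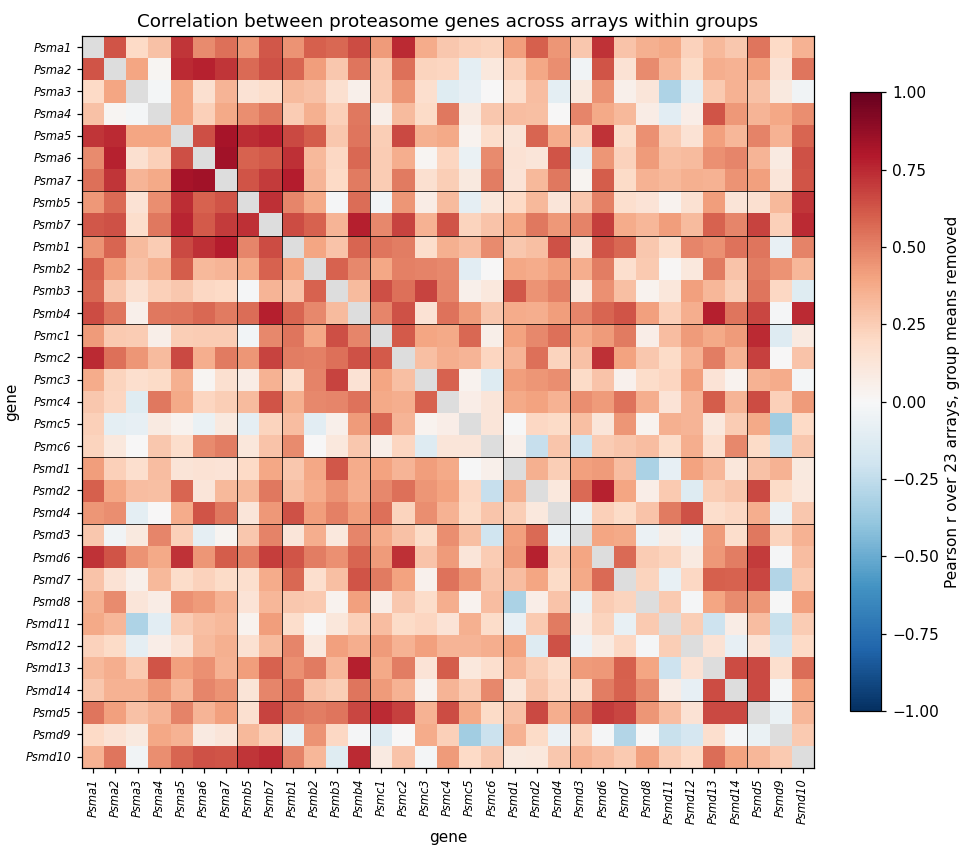
Pearson correlation of each pair of proteasome genes over 23 arrays after group means were removed (colour scale from −1 to 1), with genes in the order of the complex and lines between its parts. The block of alpha and beta subunits at the upper left is darkest, where the median correlation over 78 core pairs was 0.504.

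Other probe sets of the same genes followed the one used only loosely from array to array, and some gave another direction or a larger difference. Further passing probe sets existed for Psmc6, Psmd7, Psmd9, Psmd11 and Psmd14. Psmd14 had a pair of them, whose correlations with the one used were 0.313 and 0.228 over 23 arrays, and their differences in aged against young rats were −0.0806 and −0.134, where that of the one used was 0.02. The dimmer of them (mean 5.084) differed by −0.204 in impaired against young rats and by −0.165 between the aged groups, more than the probe set used for any of the 33 genes. Psmd11's second probe set correlated at 0.105 and differed by −0.0453 in aged rats, where the first differed by 0.06. For Psmc6 the correlations were 0.214 and −0.365, for Psmd7 0.161 and for Psmd9 −0.13. In aged against young rats the direction depended on the probe set for Psmd14, Psmd11, Psmd7 (0.0538 in the one used, −0.0023 in the other) and Psmc6 (−0.0128 in the one used, 0.0151 and 0.014 in the others). The intervals given for these genes hold for the probe set used. Taking the mean of a gene's passing probe sets, or the one of largest variance, gave no called proteasome gene, and other choices were not run.

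Around the complex, Nfe2l2, Nfe2l1 and Psme1 were called in aged against young rats. Nfe2l1 and Psme1 lost the call in some fits that left out 1 array. Lists of the complex's partners were drawn up by function, with earlier results of these data known. Of the 8 measured regulators of proteasome genes 2 rose in aged against young rats and none fell, where 3.09% of all genes rose and 0.628% fell (list median 0.07, all genes 0.011). Nfe2l2, the master factor of the oxidative stress response, ran from 8.501 through 8.714 to 9.07 in young, from 8.851 through 9.067 to 9.156 in unimpaired and from 8.859 through 9.102 to 9.28 in impaired rats. It rose by 0.31 ± 0.06 in aged rats (limma adjusted p = 0.00514) and 0.33 ± 0.07 in impaired rats (adjusted p = 0.0102), and was 0.29 ± 0.08 higher in unimpaired rats (adjusted p = 0.0791). Of the 9 young arrays 4 lay within the aged range and the others below it.

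Nfe2l1, the factor that restores subunit expression when the proteasome is blocked, ran from 8.075 through 8.492 to 8.939 in young, from 8.601 through 8.836 to 9.044 in unimpaired and from 8.518 through 8.818 to 9.013 in impaired rats. The difference was 0.28 ± 0.08 in aged rats (limma adjusted p = 0.0497), 0.27 ± 0.09 in impaired rats (adjusted p = 0.1) and 0.28 ± 0.1 in unimpaired rats (adjusted p = 0.239). This call was marginal: it was lost in 19 of 23 fits that left out 1 array, with a difference of 0.22 to 0.328 and an adjusted p up to 0.094. The antioxidant core was found in the promoters of Psma3, Psmb2, Psmb5, Psmd1 and Psmd9. The differences of these genes in aged against young rats were 0.09, 0.02, −0.05, 0.01 and −0.04. None was called, as none of the 33 proteasome genes was. The part of the element in these differences was not tested.

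Of the 4 measured activators and inhibitors, which cap the core in place of the regulatory particle, 1 rose in aged rats, beside 3.09% of all genes (list median 0.16, all genes 0.011). Psme1, a subunit of the interferon-induced cap, ran from 9.725 through 9.847 to 9.96 in young, from 9.911 through 9.945 to 10.21 in unimpaired and from 9.844 through 10.13 to 10.3 in impaired rats. It rose by 0.22 ± 0.06 in aged rats (limma adjusted p = 0.0269) and 0.27 ± 0.06 in impaired rats (adjusted p = 0.0173), and was 0.16 ± 0.07 higher in unimpaired rats (adjusted p = 0.432). Between the aged groups the difference was 0.11 ± 0.07 (adjusted p = 0.794). In aged rats the adjusted p was 0.0623 without young replicate 2, 0.0567 without young replicate 6 and 0.0575 with RNA quality as a covariate. Its partner Psme2 was 0.1 ± 0.04 higher in aged rats (adjusted p = 0.21) and 0.15 ± 0.05 higher in impaired rats (adjusted p = 0.0804). The latter passed the threshold without impaired replicate 3 (adjusted p = 0.0384) or replicate 7 (adjusted p = 0.0244). Psme4, a nuclear activator, and Psmf1, an inhibitor, were 0.21 ± 0.1 and 0.08 ± 0.05 higher in aged rats (adjusted p = 0.286 and 0.493).

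No gene was called among the 5 core assembly chaperones (list median 0.01), the 12 ubiquitin receptors, shuttles and deubiquitinases that attach to the proteasome (0.03), the ubiquitin-activating enzymes Uba1 and Uba6 (−0.02) or the 9 genes of the Vcp segregase (0.03), in aged against young rats. Of all genes 3.71% were called in that comparison, so the lack of calls in lists this short is not read as a result. The chaperone Psmg3 stood apart by size, at 7.515 ± 0.719 in young, 7.41 ± 0.532 in unimpaired and 6.749 ± 0.482 in impaired rats, with −0.77 ± 0.27 in impaired against young (limma adjusted p = 0.132, and 0.0479 without young replicate 3). Its lowest, median and highest values were 6.348, 7.676 and 8.627 in young and 6.104, 6.739 and 7.438 in impaired rats. Those ranges overlap widely, and the SD among young rats was close to the difference in size. Ubxn1, an adaptor of the segregase, was 0.12 ± 0.04 higher in aged rats (adjusted p = 0.0682), and the deubiquitinase Uchl5 0.09 ± 0.05 higher (adjusted p = 0.388).

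When interferon acts on a cell, Psmb10 replaces Psmb7 in newly made cores. Psmb10 alone was 0.18 ± 0.09 higher in aged rats (limma adjusted p = 0.342), and Psmb9, the other measured subunit of the immunoproteasome, 0.05 ± 0.04 (adjusted p = 0.599). Psmb10 read 6.477 ± 0.0994 in young, 6.646 ± 0.0846 in unimpaired and 6.672 ± 0.357 in impaired rats. Psmb9 read 4.325 ± 0.0276, 4.383 ± 0.133 and 4.375 ± 0.0913 in that order, close to the filter limit of 4, so its small difference says little. The within-array difference of Psmb10 minus Psmb7, of which only the shift between groups can be read since probe sets differ in brightness, ran from −4.87 through −4.55 to −4.51 in young, from −4.55 through −4.42 to −4.26 in unimpaired and from −4.65 through −4.49 to −3.69 in impaired rats. Of the 14 aged arrays 11 stood above every young one, and so did 5 of 6 unimpaired arrays. The shift was 0.19 in aged rats (exact permutation p = 0.0135, adjusted over 4 comparisons 0.0269), 0.18 in unimpaired rats (exact p = 0.0018, adjusted 0.00719), 0.21 in impaired rats (exact p = 0.0357, adjusted 0.0477) and 0.03 between the aged groups (exact p = 0.888), all two-sided. The shift in impaired rats rested much on replicate 5, without which it was 0.109 (adjusted p = 0.129). Its adjusted p was not under 0.05 in 13 of 23 fits that left out 1 array. In aged rats the same held without young replicate 7 (0.159, adjusted p = 0.0934) or young replicate 8 (0.192, adjusted p = 0.0515). This pair was chosen after values had been seen, and the adjustment over 4 comparisons does not count that choice. Its p-values are therefore a description and not read as support. Psmb7 differed by −0.01 in aged rats, and Psmb10 alone was called in no comparison.

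Markers of other cells moved beside these changes. Among markers of microglia and macrophages 8 of the 12 measured rose in aged rats and none fell, beside 3.09% and 0.628% of all genes (list median 0.39), and the log2 of their summed level ran from 12.9 to 13.2 in young, 13.2 to 13.6 in unimpaired and 13.3 to 13.6 in impaired rats. Among the defining markers Aif1 rose by 0.45 ± 0.09 (limma adjusted p = 0.00516) and C1qa by 0.55 ± 0.08 (adjusted p = 0.000293), whereas P2ry12 was 0.18 ± 0.1 higher (adjusted p = 0.429). Against the same shares, 2 of 9 astrocyte markers rose, Gfap and S100b, and 1 of 10 neuronal markers fell, Stmn2, by 0.15 ± 0.04 (adjusted p = 0.0401). A fall was also called for 1 of 7 endothelial markers (list median −0.06) and 1 of 4 markers of pericytes and smooth muscle (−0.24). The part of these cells in the values of Psme1, Psmb10, Nfe2l1 and Nfe2l2 was not tested.

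**Figure D5:**
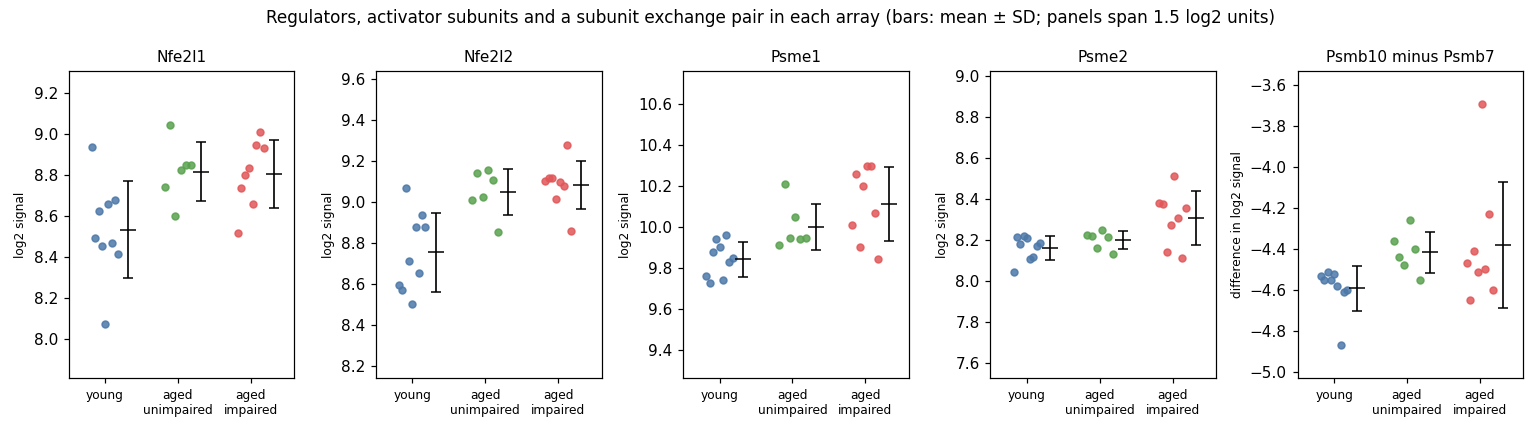
Log2 signal of the regulators Nfe2l1 and Nfe2l2 and the activator subunits Psme1 and Psme2, and the difference Psmb10 minus Psmb7, in each array (points) with the mean and SD of each group (bars), every panel spanning 1.5 log2 units. Both aged groups lie above most young arrays for Nfe2l2, and aged impaired replicate 5 stands alone at −3.69 in the last panel.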

How the data were processed

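The deposited values are log2 signals of Affymetrix rat genome arrays. Per the submitters' processing notes the authors used GCRMA, whose version and settings are not given in the sources used here. GCRMA corrects background, normalizes arrays and summarizes probes, so differences are relative to all probe sets. Values were used as deposited. Of 31099 probe sets, 20832 had 1 gene symbol in the platform's annotation, 436 several and 9831 none. Group means of all 3 groups were fitted with limma 3.58.1 in R 4.3.3 (lmFit, contrasts, eBayes), and the aged mean weighted its groups by arrays. The fit was tested on simulated data. Single values were compared with exact permutation tests over arrays.

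Members and gene lists were chosen with earlier results of these data known. The 3 highest and 3 lowest members of each comparison were given with difference, SE and adjusted p. The catalytic subunits, ATPases and Psmd14 were described whatever they did, some by their differences alone. In the partner lists every called gene was given, with a selection of others that leaves out some of small p. Alternatives covered the filter, probe sets, scaling, array weights, moderation, RNA quality, threshold, groups fitted, replicate block and each array left out; leaving out the 3 arrays of lowest correlation was added after seeing the data. No batch or date was given. The labels call arrays biological replicates, and their number limits the precision. Figures used matplotlib 3.10.9.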

Additional observations from a re-analysis of the deposited data

Results flagged for a closer look

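In 7 of 99 combinations of a proteasome gene and a group, 1 array stood apart from the others by Dixon's criterion, which flags about 5% of groups by chance. In aged unimpaired rats these were Psma4 at 9.385 in replicate 5 (next 9.178), Psmd14 at 10.7 in replicate 5 (next 10.6), Psmd8 at 9.313 in replicate 4 (next 9.215), all at the top of the group, and Psmc2 at 11.34 in replicate 2 (next 11.44), at the bottom. In aged impaired rats they were Psmc3 at 9.924 in replicate 7 (next 10.12), Psmd9 at 6.391 in replicate 7 (next 6.744) and Psmd10 at 8.782 in replicate 3 (next 8.981), all at the bottom.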

How the results depend on the processing

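The count of called proteasome genes stayed at 0 in every alternative and comparison. For the proteasome genes followed singly, 68 results with 2431 alternative values, the smallest adjusted p was 0.0806, the sign changed in 138 cases and the size reached 0.204. Counts over all genes moved more. With array weights 149 genes were called in unimpaired against young rats, and 1 gene in impaired against unimpaired rats when only the groups compared were fitted, a setting that gives no value for aged against young. At an adjusted p under 0.10 the counts were 524, 531 and 135 in aged, impaired and unimpaired rats against young. Leaving out 1 array gave 224 to 407 in aged, 228 (without impaired replicate 6) to 439 in impaired and 35 (without unimpaired replicate 4) to 86 in unimpaired rats. Centred arrays gave 241 higher and 136 lower in aged rats against 280 and 57 as deposited.

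Replicate numbers did not pair the arrays: same-numbered arrays deviated together with a median correlation of −0.0519 over 20 pairs, 1 of them over 0.1. With the replicate number as a block 0 proteasome genes were called in each comparison, and 244, 244 and 50 genes in all. Nfe2l1 in aged rats lost its call with the block (adjusted p 0.0827), without the filter (0.0823), with the most variable probe set (0.0587), centred (0.0726), quantile normalized (0.0778), with array weights (0.0873) and with RNA quality as a covariate (0.119). Calls were gained by Nfe2l1 in impaired rats with the mean of its probe sets (0.0296), and with array weights by Nfe2l2 in unimpaired rats (0.0344) and Ubxn1 in aged rats (0.0451). Leaving out 1 array also gave calls to Nfe2l1 in impaired rats (0.0281) and Nfe2l2 in unimpaired rats (0.0261), without young replicates 1 and 3, to Ubxn1 in aged (0.0395) and impaired rats (0.0448) without impaired replicate 3, and to Psme2 and Psmg3 as reported. Without the 3 arrays of lowest correlation Psme2 (0.0354) and Ufd1 (0.0363) in impaired and Ubxn1 in aged rats (0.0486) were called. The cause was not tested. Quantile normalization took the adjusted permutation p of Psmb10 minus Psmb7 in impaired rats to 0.064. The number of arrays and the signal over background limit the precision.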

Other observations

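A second probe set for Psma3, shared with Psma3l and so outside the rule, read 9.624 ± 0.0938 in young, 9.583 ± 0.0514 in aged unimpaired and 9.619 ± 0.141 in aged impaired rats, differences of −0.04 and −0.01 from young, where the probe set of Psma3 alone was 0.05 and 0.13 higher. The brightest probe set shared by Psme3, a nuclear activator of the core, with Aoc3 and G6pc1 read 9.276 ± 0.0973, 9.316 ± 0.0733 and 9.377 ± 0.161 in the same order. Probe sets with several symbols were in none of the tests.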
